A study of Mus musculus with 14 samples.

Results

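New H3K4me3 peaks outside H3K27me3 were examined in Myc-driven mouse medulloblastoma cells that lack Ezh2. They are H3K4me3 peaks of the Ezh2 knockout that shared no base with an H3K4me3 peak of Cas9 control cells and none with an H3K27me3 region of those cells. Of the 14417 H3K4me3 peaks in the knockout list, 735 met this rule, or 5.10%. Another 683 peaks of the knockout alone lay inside H3K27me3 regions of Cas9 cells, and 11412 peaks outside them were shared with Cas9 cells. The count without the H3K27me3 condition was 1418 of 14417, or 9.84% of the list. The members were chosen by the authors' H3K4me3 and H3K27me3 calls in these same libraries, so the values that follow are a description without a test.

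The tumorsphere cells, a model of Group 3 medulloblastoma, overexpress Myc. Ezh2 knockout cells were labelled p53-/-;p18-/-;Ezh2-/- and Cas9 cells p53-/-;p18-/-, so both kinds lack p53 and p18. Per the labels, retroviral vectors were introduced, cells positive for RFP and GFP were sorted and expanded, and the protocol goes on to transplantation into the cerebral cortex of immunodeficient nude mice. The labels do not say at which of these steps chromatin was taken, nor whether the knockout was a clone. The Gfi1 antibody libraries came from neurospheres, cultured neural cells labelled p53-/-;p18-/-, of Suz12F2 and of Cas9 cells, where the labels do not explain F2. Libraries with a Cas9 antibody came from neurospheres labelled Suz12F1, Suz12F2 and U6. Each group held 1 ChIP-seq library, in which DNA bound to a protein or a modified histone is recovered with an antibody and sequenced. H3K27me3 regions numbered 5312 in the knockout and 14107 in Cas9 cells. No value has a replicate error. Read depth is unknown. Brackets after shares give Wilson 95% intervals, and those after medians give order-statistic 95% intervals. Both cover counting error only, treat regions as independent and say nothing of biological or technical variation.

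H3K4me3 is laid down by methyltransferases of the SET1 and MLL families at transcription start sites and is known as a mark of promoters, most of them rich in CpG dinucleotides. Acetylation of lysine 27 of histone H3, H3K27ac, marks active promoters and enhancers. H3K27me3 sits on the same lysine, so acetylation and methylation exclude each other on 1 histone tail. It is deposited by Polycomb repressive complex 2, whose enzymatic subunit is Ezh2 and of which Suz12 is another subunit. Gfi1 is a zinc finger transcriptional repressor that recruits histone deacetylases and the demethylase Lsd1.

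Some calls behind the rule could not be checked. The deposited tumour lists number their regions, and 486 numbers of the Cas9 H3K4me3 list and 71 of the Cas9 H3K27me3 list were not analysed here. A new peak was called beside a skipped number when the listed regions on either side of it were not numbered consecutively. This applied to 52 new peaks for H3K4me3 and to 10 for H3K27me3, or to 60 in all, so that a Cas9 region may exist there. Such a number lay beside 8.16% (6.39 to 10.4) of the new peaks, against 3.84% of the whole knockout list. The other 675 new peaks had consecutive numbers on both sides in both lists. The lists of H3K27ac also skip numbers, 363 in the knockout and 375 in Cas9 cells. So do the knockout lists of H3K4me3, with 467, and of H3K27me3, with 105. Absence of a peak from the knockout could thus not always be checked either.

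The new peaks were narrow and low in the list. Their median width was 220 bp (215 to 227), against 552 bp (544 to 559) for shared peaks outside H3K27me3. New peaks inside H3K27me3 lay between, at 277 bp (267 to 290). The narrowest peak in the knockout list measured 180 bp, and 151 of the new peaks had that width, or 20.5%, against 3.36% of the whole list. A width under 200 bp was found for 267 new peaks, or 36.3% (32.9 to 39.9), against 7.25% of all knockout peaks. At the other end 20 new peaks reached 500 bp, or 2.72% (1.77 to 4.17), against 52.0% of the list. The middle 50% of the new peaks spanned 184 to 282 bp, and the widest measured 1105 bp.

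Peaks were ranked by the score that the authors gave each peak, whose meaning the files do not state. The median score of the new peaks was 11 (11 to 12), against 24 (24 to 25) for shared peaks, and 90% of the new peaks scored 15 or less. The median new peak thus stood at percentile 8.78 of the knockout list. Only 7 new peaks lay in the upper 50% of scores, or 0.952% (0.462 to 1.95), against 51.0% of the list when tied scores are counted in. Of these 7, 3 lay beside a skipped number. New peaks inside H3K27me3 had a median score of 12 (12 to 13), and 24 of those 683 reached the upper 50%, or 3.51% (2.37 to 5.18).

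**Figure D1:**
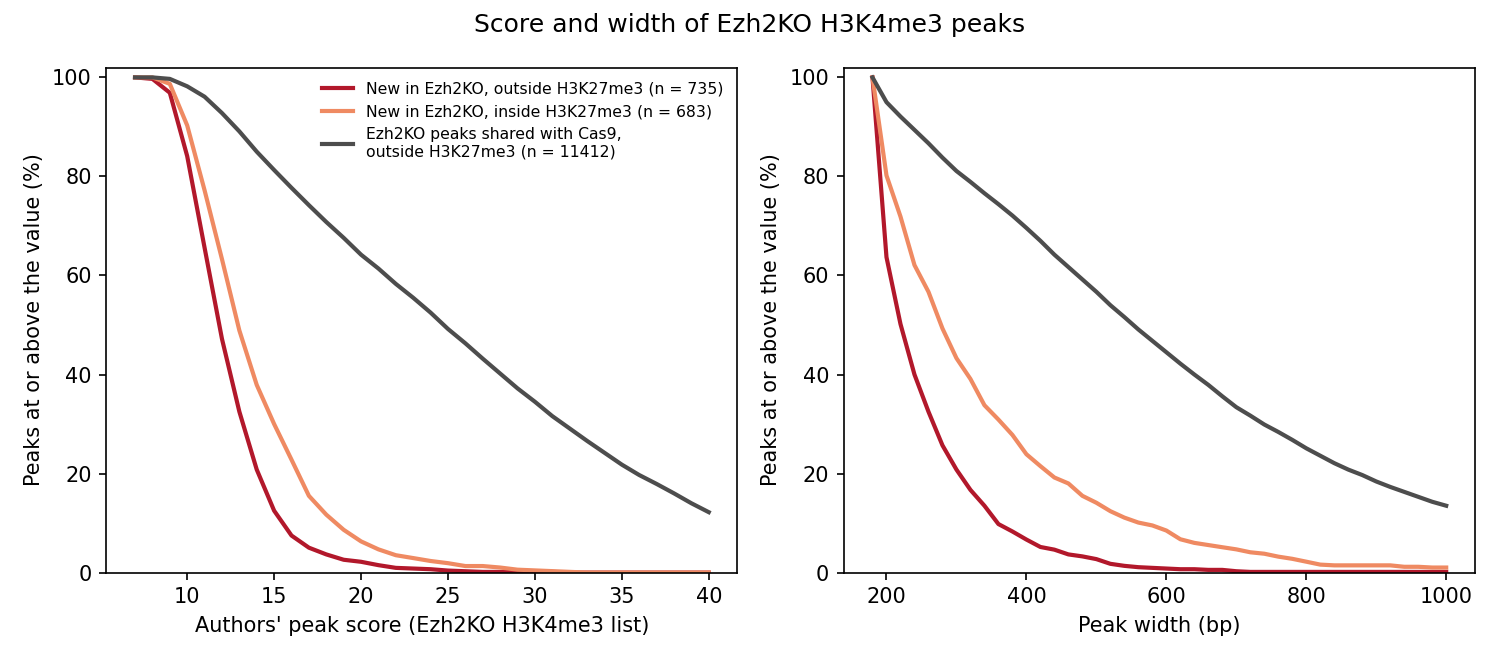
The curves give the share of H3K4me3 peaks of the Ezh2 knockout (percent) at or above each score of the authors (left) and each width in bp (right). New peaks outside H3K27me3 (n = 735) fall away first, with a median width of 220 bp, before new peaks inside H3K27me3 (n = 683, 277 bp) and shared peaks (n = 11412, 552 bp).

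Most new peaks sat close to H3K4me3 that Cas9 cells already had. The gap to the nearest Cas9 H3K4me3 peak had a median of 363 bp (299 to 459), and 445 new peaks lay within 1 kb of one, or 60.5% (57.0 to 64.0). Of the rest, 39 lay between 1 and 5 kb away, or 5.31%, against 0.472% of all knockout peaks. A gap of 5 to 50 kb was found for 133, or 18.1%, against 2.32% of all, and a gap over 50 kb for 118, or 16.1%, against 3.09% of all. New peaks inside H3K27me3 were placed otherwise, with 126 of 683 within 1 kb, or 18.4% (15.7 to 21.5), and a median gap of 44664 bp (37956 to 54874). The rule itself puts shared peaks at a gap of 0, so that 94.1% of all knockout peaks lie within 1 kb of a Cas9 peak, and nothing is read from these shares of all peaks. Among the 675 new peaks away from skipped numbers, 426 lay within 1 kb, or 63.1% (59.4 to 66.7).

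The same layout was found in the other direction. Of the 14363 Cas9 H3K4me3 peaks, 2090 were absent from the knockout anywhere, or 14.6%, and 1876 were absent from the knockout and outside H3K27me3 regions of Cas9 cells, or 13.1%. New peaks numbered 735 and absent peaks 1876, from lists of 14417 and 14363 peaks. Of the absent peaks, 101 lay beside a skipped number of the knockout H3K4me3 list or the Cas9 H3K27me3 list, or 5.38% (4.45 to 6.50). A region that was not analysed may exist there. The absent peaks had a median width of 240.5 bp (235 to 246) and a median score of 12 (12 to 12) in their own list. Of these, 1196 lay within 1 kb of a knockout peak, or 63.8% (61.6 to 65.9), and their median gap was 375.5 bp (346 to 413). Outside H3K27me3, then, more than 50% of the peaks without a partner lay within 1 kb of a peak of the other list in both kinds of cell.

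**Figure D2:**
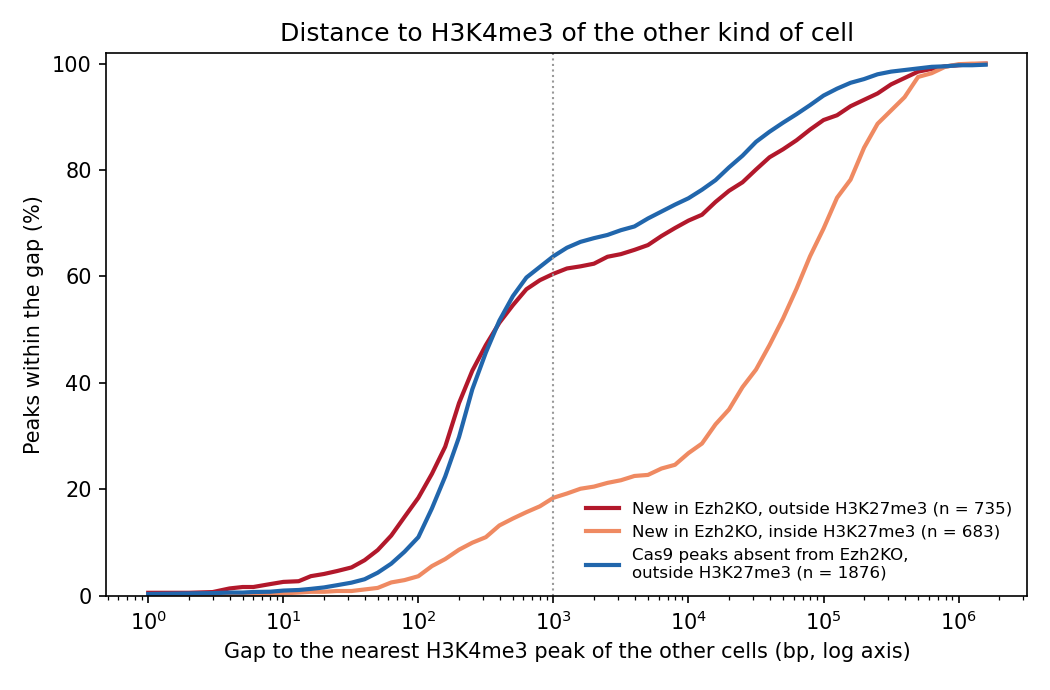
The curves give the share of peaks (percent) whose gap to the nearest H3K4me3 peak of the other kind of cell is at most the value on the log axis (bp), with 1 kb dotted. New peaks outside H3K27me3 (n = 735) and Cas9 peaks absent from the knockout (n = 1876) both rise steeply before 1 kb, to 60.5% and 63.8%, while new peaks inside H3K27me3 (n = 683) reach 18.4% there.

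The 445 new peaks within 1 kb flanked 435 different Cas9 peaks, with a median gap of 171 bp (155 to 189). These new peaks had a median width of 214 bp (211 to 220), against 606 bp (549 to 652) for the Cas9 neighbours. The neighbours' median score was 28 (26 to 31) in the Cas9 list, and 388 of the 445 were wider than the new peak beside them. For 379 new peaks, or 85.2% (81.6 to 88.2), the neighbour was itself overlapped by a knockout peak. Here the new peak was an additional call beside H3K4me3 found in both kinds of cell. Cas9 H3K4me3 peaks as a whole were kept about as often, with 2090 of 14363, or 14.6%, not overlapped by a knockout peak. In 337 of those 379 cases the knockout peak on the neighbour scored above the new peak. These kept neighbours had a median width of 596 bp (550 to 632) in the knockout and 682 bp (628 to 732) in Cas9 cells. H3K27ac of the knockout lay on the kept neighbour in 281 of the 379 cases, or 74.1% (69.5 to 78.3), and that of Cas9 cells in 238, or 62.8% (57.8 to 67.5). Over all shared peaks outside H3K27me3, taken by their position in the knockout, the shares were near these, at 70.1% and 61.7%. H3K27me3 of Cas9 cells overlapped 4 of the 445 neighbours, a low count that the rule favours, as it keeps the new peaks beside them outside H3K27me3.

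For the other 66 flanking new peaks the Cas9 neighbour was not overlapped by a peak of the knockout list, which skips 467 numbers. Here a narrow peak of the knockout stood next to a narrow peak of Cas9 cells, with median widths of 227 bp (198 to 255) and 228.5 bp (214 to 281). Their median scores were 12 (10 to 13) in the knockout list and 13 (12 to 14) in the Cas9 list. Few of these neighbours carried H3K27ac, 9 of 66 in the knockout, or 13.6% (7.34 to 23.9), and 5 of 66 in Cas9 cells, or 7.58% (3.28 to 16.5).

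The rule turns on single bases at this edge. Of the new peaks, 135 had a gap of at most 100 bp to a Cas9 peak, of which 2 touched it with no base between. Among the shared peaks outside H3K27me3, 205 overlapped a Cas9 peak by 100 bp or less. Just inside the rule stood chr1:82284115-82284434 and chr11:69735526-69735817, with a gap of 0 bp and scores of 9 and 12, and chr15:85502945-85503144, with a gap of 1 bp and a score of 11. Just outside it stood chr1:174431533-174431712 and chr11:6526532-6526730, which overlapped a Cas9 peak by 1 bp and scored 9 and 11, and chr10:127613090-127613289, with 2 bp of overlap and a score of 11. The named peaks on either side of the rule scored between 9 and 12, and scores of all peaks near this edge were not compared. Positions are in build mm9, and no gene annotation of that build was used, so regions are named by position alone.

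H3K27ac was found on few of the new peaks, and more often in the knockout. In the knockout 114 of 735 carried it, or 15.5% (13.1 to 18.3), against 61.9% of all knockout H3K4me3 peaks. In Cas9 cells 47 of the same places carried it, or 6.39% (4.84 to 8.40), against 50.0% of all knockout peaks. Acetylation in the knockout alone was found at 79 new peaks, or 10.7% (8.71 to 13.2), against 15.0% of all. It was found in both kinds of cell at 35, or 4.76%, against 46.9%, and in Cas9 cells alone at 12, or 1.63%, against 3.07%. The remaining 609 new peaks, 82.9% (80.0 to 85.4), had no H3K27ac in either kind of cell, against 35.0% of the list. H3K27ac peaks lay within 1 kb of many more, 374 in the knockout and 287 in Cas9 cells, or 50.9% and 39.0%, against 73.0% and 60.1% of all.

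The H3K27ac list of the knockout was longer than that of Cas9 cells, 10112 against 7951 peaks. With both lists held to 7951 peaks by score, 72 new peaks were acetylated in the knockout, or 9.80% (7.85 to 12.2). In Cas9 cells 47 were, or 6.39% (4.84 to 8.40). These intervals overlapped, but both shares come from the same 735 peaks, so the overlap does not compare them. Of the 735 peaks, 44 were acetylated in the knockout alone and 19 in Cas9 cells alone. Shares were also taken near and far from existing H3K4me3, with lists of equal number. Within 1 kb of a Cas9 H3K4me3 peak, 41 of 445 were acetylated in the knockout, or 9.21% (6.86 to 12.3), and 36 in Cas9 cells, or 8.09% (5.90 to 11). Beyond 1 kb, 31 of 290 were acetylated in the knockout, or 10.7% (7.63 to 14.8), and 11 in Cas9 cells, or 3.79% (2.13 to 6.66). In the lists as deposited these distant peaks gave 51 in the knockout, or 17.6% (13.6 to 22.4), and the same 11 in Cas9 cells.

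At Cas9 peaks absent from the knockout and more than 1 kb from any knockout peak the order turned with the trimming. The deposited lists had 100 of 680 acetylated in the knockout, or 14.7% (12.2 to 17.6), and 81 in Cas9 cells, or 11.9% (9.69 to 14.6). With lists of equal number these were 57 in the knockout, or 8.38% (6.53 to 10.7), and 81 in Cas9 cells. Both shares come from the same peaks, so peaks acetylated in only 1 kind of cell were also counted. Beyond 1 kb at equal list length, 24 new peaks were acetylated in the knockout alone and 4 in Cas9 cells alone. For the absent peaks these counts were 14 and 38. Over all 1876 absent peaks at equal list length, 7.78% (6.65 to 9.08) were acetylated in the knockout and 11% (9.64 to 12.5) in Cas9 cells. Of these peaks, 39 were acetylated in the knockout alone and 99 in Cas9 cells alone. Among the distant new peaks, 249 had no skipped number beside them. With deposited lists 43 of these were acetylated in the knockout, 7 in Cas9 cells and 37 in the knockout alone, and with lists of equal number 27, 7 and 21. Among the distant absent peaks, 628 had no skipped number beside them. With lists of equal number 54 of these 628 were acetylated in the knockout and 76 in Cas9 cells. Acetylation in the knockout alone was found at 14 of them and in Cas9 cells alone at 36.

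**Figure D3:**
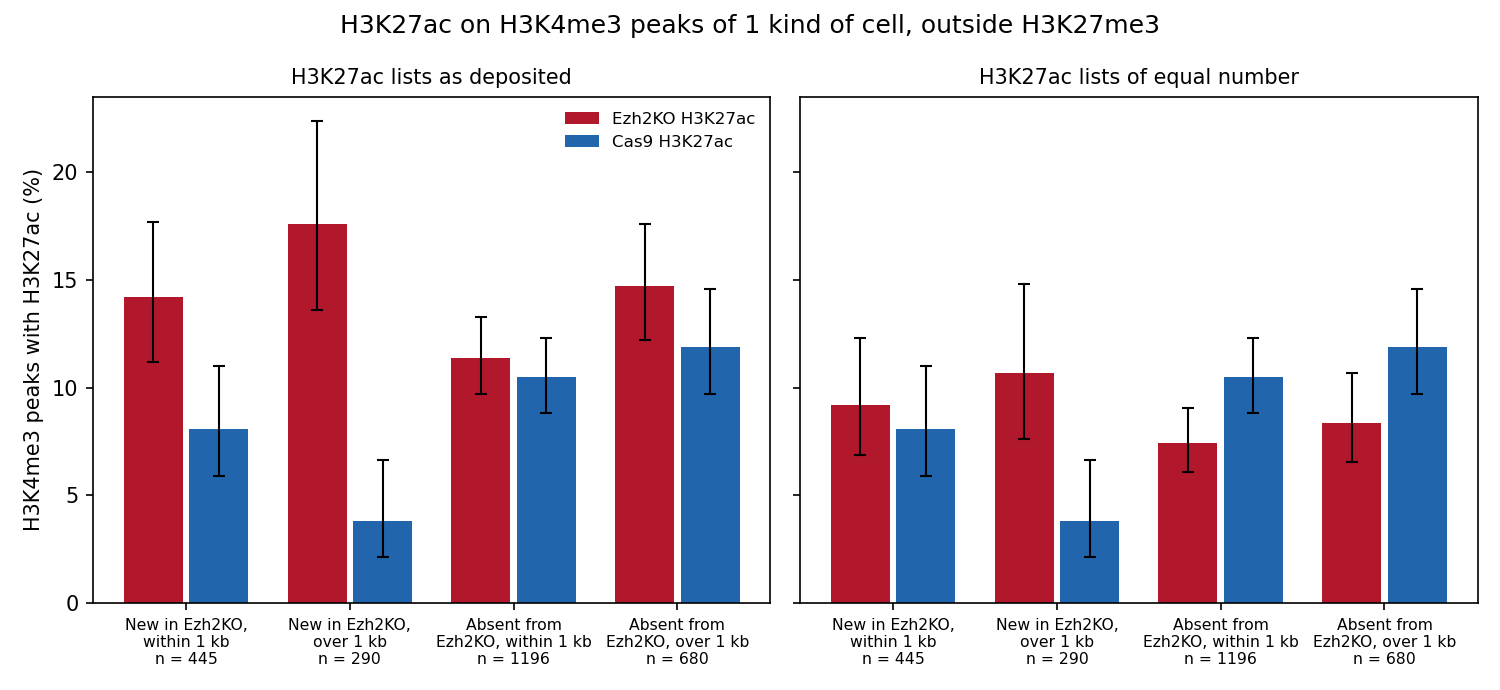
Bars give the share of H3K4me3 peaks (percent) with H3K27ac in the Ezh2 knockout (red) and in Cas9 cells (blue), with Wilson 95% intervals for counting error, for new peaks and for Cas9 peaks absent from the knockout, split at 1 kb from H3K4me3 of the other kind of cell. With deposited lists (left) distant new peaks stand at 17.6% and 3.79%, and with lists of equal number (right) at 10.7% and 3.79%.

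Low scores went with low acetylation, so shares were also set side by side within score bands of the knockout H3K4me3 list. At scores of 10 and 11, 30 of 271 new peaks carried H3K27ac of the knockout, or 11.1% (7.87 to 15.4), against 169 of 616 shared peaks outside H3K27me3, or 27.4% (24.1 to 31.1). At scores of 14 to 16 the shares were 20.7% (14.3 to 28.9) of 116 new peaks and 41.9% (39.2 to 44.7) of 1227 shared peaks. From a score of 17 up they were 37.8% (24.1 to 53.9) of 37 new peaks and 82.6% (81.8 to 83.4) of 8472 shared peaks. That band has no upper limit, so scores in it were not alike. A score of 22 was reached by 0.952% of all new peaks and 58.3% of all shared ones. In all 5 bands the new peaks stood below the shared ones with intervals that did not overlap. New peaks were also narrower within bands, with a median of 207 bp against 228 bp at scores of 10 and 11, and 328 bp against 658 bp from 17 up. The part of width in these shares, and of score within the top band, was not tested. New peaks inside H3K27me3 had 5.41% (2.96 to 9.66) of 185 acetylated at scores of 10 and 11, and 20.9% (15.2 to 28.0) of 153 at scores of 14 to 16.

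**Figure D4:**
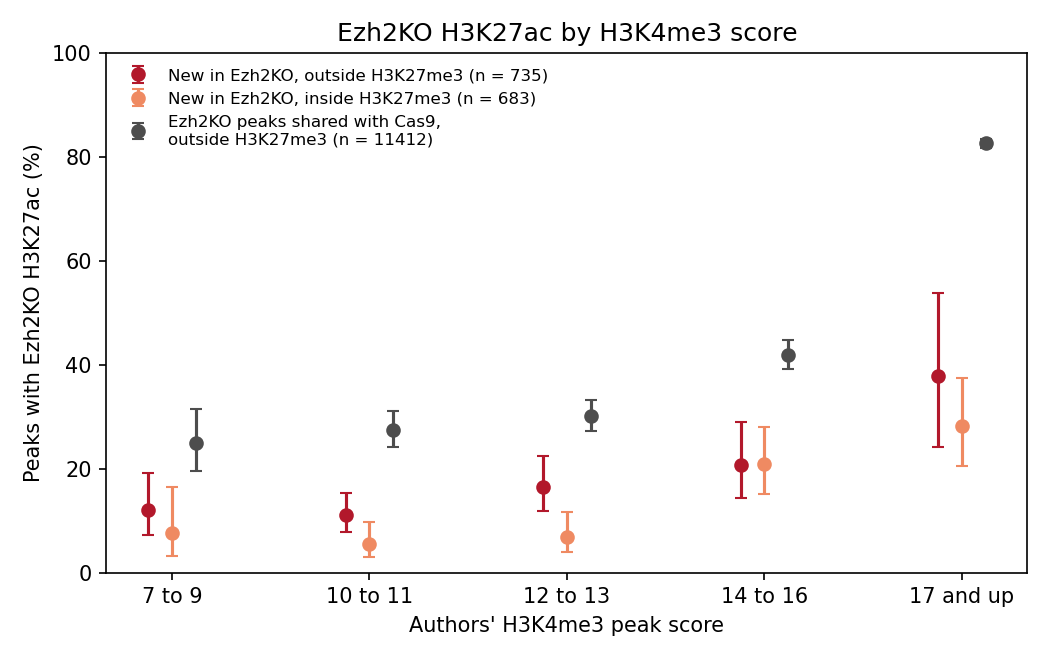
Points give the share of H3K4me3 peaks of the knockout (percent) that carry H3K27ac of the knockout in 5 bands of the authors' score, with Wilson 95% intervals. New peaks outside H3K27me3 (red) range between 11.1% and 37.8% and lie below the shared peaks (grey) in every band. The last band has no upper limit, so scores in it are not alike.

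The H3K27ac peaks on the new H3K4me3 scored below the median of their own lists. In the knockout 113 such peaks had a median score of 15.0 (14.2 to 15.8), against 19.1 over the whole H3K27ac list, and in Cas9 cells 47 had a median of 14.6 (13.3 to 16.6), against 20 over theirs. Of the 113 in the knockout, 15 reached over a Cas9 H3K4me3 peak too. New peaks acetylated in the knockout alone had a median width of 247 bp (227 to 278), against 216 bp (212 to 222) for those with no acetylation. Their median gap to Cas9 H3K4me3 was 3500 bp (323 to 14322), against 363 bp (295 to 468), with intervals that overlap.

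Of the 10 highest-scoring new peaks, 3 lay beside a skipped number. The top peak, chr6:38484823-38485232, scored 31, was acetylated in the knockout and in Cas9 cells and lay 16988 bp from the nearest Cas9 H3K4me3 peak, beside a skipped number. The same held for chr15:98763793-98764897, the widest new peak at 1105 bp, which scored 23 and was acetylated in both kinds of cell. The 548 bp peak at chr7:135111615-135112162, with a score of 24 and no acetylation, also lay beside one. Whether these 3 peaks are new could not be checked.

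The other 7 of the 10 highest-scoring peaks had consecutive numbers around them. Of these, chr1:164147793-164148313 scored 26, stood 265 bp from a Cas9 H3K4me3 peak and was acetylated in both kinds of cell. Next came chr14:4958917-4959251, with a score of 25, acetylated in the knockout alone and 836849 bp from the nearest Cas9 H3K4me3 peak. It lay under a Gfi1 island of Suz12F2 but not of Cas9 neurospheres. The 10 also held 4 flanking peaks, chr19:43827204-43827465 at a gap of 15 bp, chr15:81641439-81641730 at 110 bp, chr17:25864719-25864960 at 378 bp and chr8:123642936-123643267 at 680 bp, with scores of 24, 21, 22 and 21. Of these only the peak on chromosome 15 was acetylated, in the knockout alone, and a Cas9 antibody island of neurospheres also covered it. Far from any Cas9 H3K4me3 lay chr9:41387993-41388320, with a score of 21, no acetylation and a gap of 422183 bp.

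Besides the peaks on chromosomes 14 and 15, the highest-scoring new peaks acetylated in the knockout alone each scored 20. At chr16:20629814-20630322 the gap to Cas9 H3K4me3 was 7347 bp, and at chr1:74759969-74760456 it was 50366 bp. The third, chr11:108286690-108286918, stood 10 bp from a Cas9 peak and beside a skipped H3K27me3 number. Among new peaks acetylated in Cas9 cells the list went on with chr10:105278181-105278415, which scored 18 and was acetylated in both, and chr13:63669224-63669738, which scored 17 and was acetylated in Cas9 cells alone and covered by a Cas9 antibody island of neurospheres. These lay 99 and 453 bp from Cas9 H3K4me3.

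The new peak farthest from Cas9 H3K4me3 was chr7:78850363-78850719, 1339763 bp away, with a score of 16. It was acetylated in the knockout alone, but a Cas9 antibody island of neurospheres also covered it. It was followed by chrX:141939312-141939617 at 1185614 bp, chr7:95578852-95579133 at 907635 bp, the chromosome 14 peak above and chr15:92227552-92227735 at 723791 bp. Apart from the chromosome 14 peak these had no H3K27ac, and their scores were 13, 12 and 10. The wider of the new peaks away from skipped numbers were chr9:41388697-41389410 at 714 bp, chr3:96401540-96402231 and chr9:55389796-55390487 at 692 bp each, and chr11:53882123-53882774 at 652 bp. Of these 4, the peak at 55389796 on chromosome 9 was acetylated, in the knockout alone.

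Most new peaks had no other new peak within 10 kb, and no like count was made for other kinds of peak. Joined where at most 10 kb lay between them, 664 stood alone, 27 groups held 2, 3 groups held 3 and 2 groups held 4. The first group of 4 spanned chr9:41387993-41390748, with gaps of 422183 to 424471 bp to Cas9 H3K4me3 and of 420792 to 423080 bp to H3K27me3 of Cas9 cells. Its peaks were 328, 714, 264 and 468 bp wide and had scores of 21, 13, 13 and 12. None of them carried H3K27ac in either kind of cell, and Gfi1 islands covered 2 of the 4 in Suz12F2 neurospheres and all 4 in Cas9 neurospheres. The second group spanned chr13:23529098-23541978. Its 4 peaks stood 1132, 360, 459 and 166 bp from Cas9 H3K4me3, with scores of 16, 10, 9 and 10 and no H3K27ac. Gfi1 islands covered 3 of the 4 in Suz12F2 neurospheres and none in Cas9 neurospheres. Another knockout H3K4me3 peak of any kind lay within 1 kb of 431 of the 735 new peaks, or 58.6% (55.0 to 62.1), against 41.7% of all knockout peaks.

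Most new peaks, and most shared peaks outside H3K27me3, lay more than 50 kb from H3K27me3 of Cas9 cells. The median gap of the 734 new peaks on chromosomes with such a region to H3K27me3 of Cas9 cells was 99720 bp (83780 to 112745), against 82016 bp (78609 to 85237) for shared peaks outside H3K27me3, and the intervals overlapped. Regions of H3K27me3 lay within 5 kb of 57 new peaks, or 7.76% (6.03 to 9.92), and within 5 kb of 714 shared peaks, or 6.26% (5.83 to 6.72). Over all knockout peaks, those inside H3K27me3 included, the share was 21.1%. More than 50 kb separated 474 new peaks from H3K27me3, or 64.5% (61.0 to 67.9), against 62.6% (61.7 to 63.5) of shared peaks outside H3K27me3 and 52.8% of all.

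Of the 57 new peaks within 5 kb of H3K27me3, 33 also lay within 1 kb of a Cas9 H3K4me3 peak, and 11 carried H3K27ac of the knockout, or 19.3% (11.1 to 31.3), while 2 carried that of Cas9 cells. The nearest H3K27me3 regions had a median length of 3400 bp (2800 to 4200), against 3800 bp over all 14107 regions of Cas9 cells, and 4 of 57 were overlapped by an H3K27me3 region of the knockout. These nearest regions numbered 56, 8 of which also held a new H3K4me3 peak inside them. Shares over all H3K27me3 regions of Cas9 cells are not given for these overlaps, so nothing is read from the counts. H3K27me3 of the knockout itself covered 11 new peaks, or 1.5% (0.838 to 2.66), against 2.05% of all knockout peaks, those inside H3K27me3 of Cas9 cells included, and 0.421% (0.317 to 0.557) of shared peaks outside it. None of the 11 carried H3K27ac. With 3 counts taken as the most that a 0 allows, a rough bound that is not a Wilson interval, the share could reach 27.3%.

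Gfi1 antibody islands covered most of the new peaks, yet fewer than of the list as a whole. Islands of Suz12F2 neurospheres covered 658 of 735, or 89.5% (87.1 to 91.5), against 98.1% of all knockout H3K4me3 peaks. Islands of Cas9 neurospheres covered 594, or 80.8% (77.8 to 83.5), against 87.5%. Outside both lay 53 new peaks, or 7.21% (5.55 to 9.31), against 1.48% of all. Under both lay 570, or 77.6% (74.4 to 80.4), against 87.1%. Under Suz12F2 islands alone lay 88, or 12%, against 11.1% of all, and under Cas9 neurosphere islands alone 24, or 3.27%, against 0.388% of all. New peaks inside H3K27me3 were covered almost throughout, at 99.9% (99.2 to 100.0) for Suz12F2 and 95% (93.1 to 96.4) for Cas9 neurospheres. Cas9 H3K4me3 peaks absent from the knockout stood close to the new peaks, at 90.7% (89.3 to 91.9) and 79.7% (77.8 to 81.4).

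Coverage by Gfi1 islands of Cas9 neurospheres was lower far from existing H3K4me3. For Suz12F2 neurospheres it was 405 of 445 within 1 kb, or 91.0% (88.0 to 93.3), and 253 of 290 beyond, or 87.2% (82.9 to 90.6), with intervals that overlap. For Cas9 neurospheres it was 384 of 445 within 1 kb, or 86.3% (82.8 to 89.2), and 210 of 290 beyond, or 72.4% (67.0 to 77.2), with intervals that do not. On autosomes alone, islands of Cas9 neurospheres covered 83.4% (80.5 to 86.0) of 699 new peaks, against 80.8% of all 735. Of the 35 new peaks on chromosome X, 22 lay beyond 1 kb. The part of chromosome X in the difference by distance was not tested. At scores of 10 and 11, Suz12F2 islands covered 89.7% (85.5 to 92.8) of new peaks and 94.0% (91.8 to 95.6) of shared ones, and Cas9 islands 79.3% (74.1 to 83.7) and 81.0% (77.7 to 83.9). At these scores the intervals of new and shared peaks overlapped for both. For Suz12F2 islands they did not overlap at scores of 12 and 13, with 85.6% (79.9 to 89.8) of new peaks and 95.5% (94.0 to 96.7) of shared ones. Nor did they at 14 to 16, with 89.7% (82.8 to 94.0) and 97.2% (96.2 to 98.0). In the lowest and highest bands they overlapped, with 92.3% and 92% at scores of 7 to 9, and 100% and 99.3% from 17 up. For islands of Cas9 neurospheres the intervals of new and shared peaks overlapped in every band. New and shared peaks stood at 81.2% and 78% at scores of 7 to 9, and at 79.4% and 83.3% at 12 and 13. At 14 to 16 they stood at 81.9% and 84.0%, and from 17 up at 94.6% and 87.7%. Tumour peaks and Gfi1 islands come from different cells, so an overlap is one of position only. Islands found with the Cas9 antibody covered 58 new peaks, or 7.89% (6.15 to 10.1), against 17.2% of all. By library these were 2 for Suz12F1, or 0.272%, against 0.0624% of all, 19 for Suz12F2, or 2.59%, against 6.71%, and 39 for U6, or 5.31%, against 13.7%.

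Chromosome X held more new peaks than its share of the list. It had 35 of 305 knockout H3K4me3 peaks, or 11.5% (8.37 to 15.5), against 5.10% over all chromosomes, and none of the 35 lay beside a skipped number. Of the 35, 22 were more than 1 kb from Cas9 H3K4me3. Absent peaks were also common there, at 101 of 351 Cas9 peaks, or 28.8%, against 13.1% over all chromosomes. Chromosome 13 came next with 45 of 566 peaks, or 7.95% (5.99 to 10.5), and chromosome 6 with 49 of 655, or 7.48% (5.70 to 9.75). On chromosome 6, 11 of the 49 lay beside a skipped number. The lowest share was 25 of 793 on chromosome 8, or 3.15%. Counting peaks new in the knockout whether or not H3K27me3 was there, chromosome X had 40 of 305, or 13.1%, against 9.84% over all, and stood below chromosome 15 at 15.6% and chromosome 6 at 13.7%. On chromosome X, 35 of those 40 lay outside H3K27me3, against 735 of 1418 over all chromosomes.

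**Figure D5:**
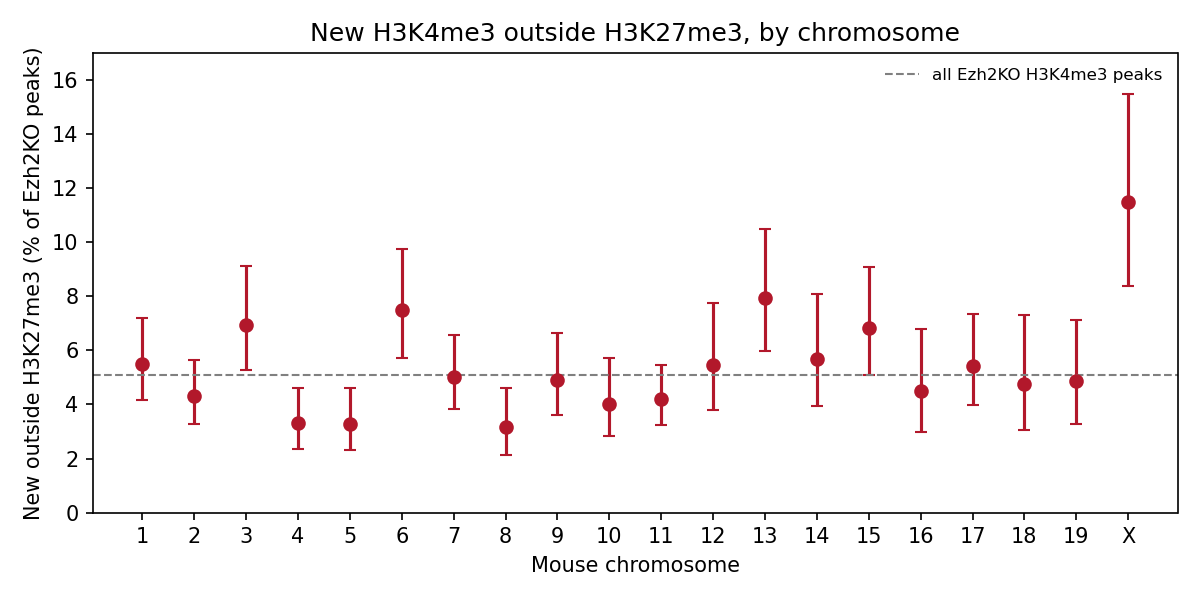
Points give the share of knockout H3K4me3 peaks (percent) on each chromosome that were new and outside H3K27me3, with Wilson 95% intervals. The dashed line is the share over all chromosomes, 5.10%, and chromosome X stands highest at 11.5%, while chromosome Y, with 1 peak, is left out.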

How the data were processed

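Of the 14 libraries, 11 have a list of regions in which the authors found enrichment, and these deposited lists were used. Input libraries were not used here. The submitters' processing notes name build mm9 and, with no role given, SICER 1.1, BWA 0.5.9-r26, SAMtools, Picard and R 2.14.0. Per the names of the deposited lists, H3K27me3 and neurosphere islands used windows of 200 bp, gaps of 600 bp and a false discovery rate of 0.00001. For H3K4me3 and H3K27ac, no source used here gives the caller or its threshold. Each region has a score from the authors, used only to rank regions within 1 deposited list. Depth is unknown, so a longer list may come from a deeper library.

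Island ends were extended by 1 bp, as they name the last base counted from 0. Overlap meant at least 1 shared bp, and gaps run from edge to edge. A percentile counts lower scores in the list plus 50% of ties. Python 3.11.15, numpy 2.4.6, scipy 1.17.1 and matplotlib 3.10.9 were used. With bedtools 2.31.1, 0 of 30 overlap and distance checks differed. In simulated data 200 of 200 planted new peaks were recovered. They were planted only where the same overlap rule held, so that outcome was fixed in advance and checks the code alone. With 1 library per group no test was possible. The members and lists were chosen with earlier results of these data known. Named peaks are the 10 with the highest score, the 5 highest acetylated in the knockout alone and in Cas9 cells, the 5 farthest from Cas9 H3K4me3, the 5 widest, 3 on either side of the rule and the largest groups within 10 kb. Alternatives were 50% cover, 1 kb distance, upper 50% of scores, autosomes, no Cas9 antibody islands, equal H3K27ac lists, stronger Gfi1 islands and midpoint distances. Leaving out peaks beside skipped numbers was chosen after seeing the data.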

Additional observations from a re-analysis of the deposited data

How the results depend on the processing

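No paired analysis was possible because every group held 1 library. The picture of narrow, low-scoring peaks held with 50% cover in place of 1 bp (1069 peaks), on autosomes alone (699), without Cas9 antibody islands (677) and without peaks beside skipped numbers (675). With 50% cover the median width was 230 bp and the median gap to Cas9 H3K4me3 155 bp, since that rule admits peaks that partly overlap. Leaving out peaks within 1 kb of Cas9 H3K4me3 left 290, with a median width of 233.5 bp, a median gap of 31757 bp, 3.79% acetylated in Cas9 cells and 72.4% under Gfi1 islands of Cas9 neurospheres. The upper 50% of scores left 7 peaks, too few for shares to be read, with a median width of 410 bp, percentile 56.1, gaps of 15183 bp to H3K4me3 and 47135 bp to H3K27me3, 57.1% acetylated in the knockout and 42.9% in Cas9 cells, and Gfi1 islands over 100% for Suz12F2 and 85.7% for Cas9 neurospheres. H3K27ac lists of equal number gave 9.80% acetylated in the knockout. The upper 50% of Gfi1 islands by score covered 70.7% for Suz12F2 and 52.8% for Cas9 neurospheres. From midpoint to midpoint the median gap to Cas9 H3K4me3 was 910.5 bp. Read depth is unknown for every list, so a region missing from a list may lie below its threshold.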
